A study of Homo sapiens with 4 samples.

Results

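The respiratory chain and ATP synthase were described gene by gene as 101 protein-coding genes, 88 of the nucleus and 13 of mitochondrial DNA, among 57905 genes counted. They were chosen by symbol alone. The nuclear set holds the NDUFA, NDUFB, NDUFC, NDUFS and NDUFV genes that carry a number, SDHA to SDHD, the UQCR genes, the COX5 to COX8 genes with a letter and the ATP5 genes, and the mitochondrial set holds MT-ND, MT-CO, MT-CYB and MT-ATP. Each gene was put in complex I to V by its symbol, which places NDUFA4 and NDUFA4L2 in complex I. Some chain components carry other symbols (CYC1, CYCS, COX4I1 and NDUFAB1) and were counted separately below.

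RNA was sequenced from U87MG, an established human glioblastoma cell line, given as wild type. The 2 control samples were untreated. The 2 chaetocin samples were kept for 24 h with 50 nM chaetocin, a fungal metabolite that inhibits histone methyltransferases including SUV39H1, dissolved in DMSO. The control labels name no DMSO, so drug and solvent cannot be told apart. The labels do not say that the samples of a group were separate cultures, so p-values measure only the spread between these samples.

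The libraries were made from polyadenylated RNA, read as single ends of 50 bases, and held 21241984 to 32590479 counts. The floor used here, 3 counts, equalled 0.0844 to 0.138 counts per 1000000 (CPM), a bound that covers counting error only. Of 9 glioma line markers 6 could be tested. Their summed level was 11971 and 9628 CPM in controls and 6719 and 3995 CPM with chaetocin, and none passed the test. CDKN2A was at 0 in every library, and SOX2 and S100B were at 0 in both controls. The 16 blood cell markers summed to 28.7, 23.8, 37.5 and 21.4 CPM in control 1, control 2, chaetocin 1 and chaetocin 2, the order used below for every set of 4 values. CSF1R made up most of this sum, and the other 15 markers summed to 1.56, 1.77, 4.78 and 6.22 CPM, higher in both chaetocin libraries. Of the 16, 7 were at 0 in all libraries and ITGAM and PTPRC passed the test as higher, at 0 or 1 count in controls and 15 to 29 with chaetocin. The part of these changes in the results below was not tested. In bulk RNA, fewer cells of a type and less RNA per cell cannot be told apart.

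Complexes I to IV of the inner mitochondrial membrane pass electrons from NADH and succinate to oxygen, and complexes I, III and IV pump protons as they do so. Complex V, the ATP synthase, lets the protons back and makes ATP. Most subunits are encoded in the nucleus and imported, while a few membrane core subunits are made inside the organelle from mitochondrial DNA. Complex II is the exception, with nuclear subunits only, and both genomes must supply the other complexes.

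The nuclear genes lie on 22 chromosomes. Their promoters are known targets of NRF1, of ETS-family factors such as GABP, and of YY1. Promoter windows of 300 bases from RefSeq (GRCh38.p14; 250 before the start and 50 after) were matched for 60 of the 88 nuclear genes and searched on both strands for exact letters. The NRF1 letters GCGCATGCG were in 13.3% of the 60 windows, against 1.92% of all 35116 windows. The ETS letters CCGGAAG were in 28.3%, against 10.3%. The YY1 letters AAGATGGCG were in 11.7%, against 1.75%. At least 1 of the 3 stood in 45% of the windows and in 13.1% of all. Over genes that passed the count filter, the 3 motifs stood in 14.5%, 30.9% and 12.7% of the 55 windows of nuclear respiratory genes, with at least 1 in 49.1%. The windows of all genes that passed held them in 2.99%, 15.7% and 3.17%, with at least 1 in 20.3%. A match describes letters, not a bound site. The promoters of 4 genes are shown for the patterns that recur below, from 120 bases before the start to 30 after it. UQCRC2 and ATP5F1C were lower than both controls in both chaetocin libraries, ATP5MD was lowest in chaetocin 2, and UQCRQ was high in chaetocin 1 and low in chaetocin 2. Capitals mark the NRF1 letters in ATP5F1C, which overlap on the 2 strands, and the ETS letters in ATP5MD and UQCRQ, and UQCRC2 holds none of the 3 motifs in its window.
UQCRC2, chr16:21953241-21953390, plus strand: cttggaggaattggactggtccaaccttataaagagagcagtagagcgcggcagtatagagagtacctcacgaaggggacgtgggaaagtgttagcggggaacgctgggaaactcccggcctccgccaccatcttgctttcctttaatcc
ATP5F1C, chr10:7788057-7788206, plus strand: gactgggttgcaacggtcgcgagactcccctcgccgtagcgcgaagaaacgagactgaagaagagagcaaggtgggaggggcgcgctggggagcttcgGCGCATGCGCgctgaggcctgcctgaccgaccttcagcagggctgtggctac
ATP5MD, chr10:103396446-103396595, minus strand: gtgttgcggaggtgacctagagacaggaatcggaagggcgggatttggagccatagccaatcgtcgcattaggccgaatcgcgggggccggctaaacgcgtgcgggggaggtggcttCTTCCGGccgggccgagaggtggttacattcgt
UQCRQ, chr5:132866522-132866671, plus strand: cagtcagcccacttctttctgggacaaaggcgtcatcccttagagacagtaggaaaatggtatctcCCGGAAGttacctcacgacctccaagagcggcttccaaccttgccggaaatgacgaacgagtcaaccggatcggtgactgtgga

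The mitochondrial genes lie end to end on 1 circular molecule, and 3 pairs overlap in sequence. MT-ATP6 and MT-CO3 share only the base at chrM:9207. MT-ATP8 and MT-ATP6 share 46 bases at chrM:8527-8572 and MT-ND4L and MT-ND4 share 7 bases at chrM:10760-10766, both on the plus strand of GRCh38. In the longer overlaps, the capitals mark the start codon of the second gene and the stop codon of the first. Reads of 50 bases are longer than each overlap, and how reads that span one were counted is not given.
MT-ATP8 and MT-ATP6: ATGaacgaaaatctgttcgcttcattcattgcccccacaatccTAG
MT-ND4L and MT-ND4: ATGcTAA

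Per transcript length, the mitochondrial genes were far above the nuclear ones. Their level as TPM, a share of all transcripts with counts divided by length, made here from the counts and averaged over the 4 libraries, had a median of 4672 and ran from 1919 for MT-ND6 to 9902 for MT-ND4. The nuclear genes had a median of 111 TPM. The highest nuclear genes were ATP5MC3, a gene for the c subunit of the ATP synthase ring, at 3549 TPM, and ATP5F1B, the catalytic beta subunit, at 1083 TPM. Lengths were medians over the principal annotated transcripts, so a TPM is approximate where these differ, as for SDHC. Within libraries, the 13 mitochondrial genes took 2.93%, 2.87%, 2.64% and 3.10% of all counts. The 88 nuclear genes took 0.872%, 0.847%, 0.880% and 0.847%.

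No respiratory chain gene passed the main test. Of the 101 genes, 92 passed the filter on low counts, all 13 mitochondrial and 79 nuclear ones. In edgeR's quasi-likelihood test 0 of the 92 were called higher and 0 lower at an adjusted p below 0.05, against 1.11% and 0.743% of the 16416 genes tested. These values rest on TMM scaling, which gave the libraries factors of 0.942, 0.948, 1.026 and 1.092, and so lowered chaetocin values relative to controls. On total counts with no such factor, a setting chosen after seeing the data, again none was called, while 360 of all genes were called higher and 73 lower in place of 182 and 122. Upper-quartile factors gave 246 and 88. At an unadjusted p below 0.05, NDUFB5 was higher, against 10.9% of all genes, and UQCRC2, ATP5F1A, ATP5F1C and ATP5PB were lower, against 9.43%. DESeq2 called none higher, against 2.72% of all genes, and called UQCRC2 and ATP5F1A lower, against 2.81%. With 2 samples a group, a value that misses the threshold does not show that a gene did not change. Of the nuclear genes, 21 have 20% or more of their exon bases in another annotated gene, among them ATP5F1E, ATP5S, COX8A, NDUFV2 and UQCRQ, and reads there may have been split or left uncounted.

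The fitted log2 fold changes (chaetocin over control) centred slightly below 0. The median over the 79 nuclear genes was -0.12, with 25 above 0 and 54 below, and the median over the 13 mitochondrial genes was -0.17, with all 13 below 0. The median over all genes was 0.01. The nuclear genes spread from -0.61 to 0.60 and the mitochondrial genes from -0.44 to -0.11. Among nuclear genes the median was -0.04 for complex I, 0.02 for complex II, -0.06 for complex III, -0.18 for complex IV and -0.23 for complex V. Upper-quartile scaling, which moved the median of all genes to 0.08, turned complex I to 0.03 and complex III to 0.02, and left 43 of 79 nuclear genes below 0. With no scaling factor the median of all genes was 0.17, and the respiratory medians were 0.04 for nuclear genes, with 35 of 79 below 0, and -0.01 for mitochondrial genes, with 7 of 13 below 0. Complex I was then 0.12, complex II 0.19, complex III 0.10, complex IV -0.02 and complex V -0.07. These medians lay below the median of all genes in every case but complex II. The correction for transcript length and GC content moved the nuclear median to -0.20, complex I to -0.14, complex II to 0.04, complex III to -0.14, complex IV to -0.30 and complex V to -0.34.

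The nuclear medians hid a difference between the chaetocin libraries. Chaetocin 1 lay above the mean of the controls by a median of 0.05 on the log2 CPM scale for the nuclear genes, and chaetocin 2 lay below it by a median of -0.28. The controls differed from each other by -0.07 at the median (control 2 minus control 1). Chaetocin 2 was below both controls for 59 of 79 nuclear genes (74.7%, against 40.9% of all genes) and above both for 9 (all genes 41.1%). Chaetocin 1 was below both controls for 27 (34.2%, against 39.8%) and above both for 35 (all genes 40.9%). The libraries took opposite sides for 26 genes. In 24 of these chaetocin 1 was above and chaetocin 2 below both controls, a pattern of 8.80% of all genes, and in SDHC and SDHD it was the reverse, a pattern of 7.92%. Both libraries were below both controls for 24 nuclear genes (30.4%, against 26.0%) and above both for 5 (6.33%, against 26.8%). The count below both was 42 with a correction for transcript length and GC content (53.2%, against 27.1%), and the count above both was 10 with upper-quartile scaling (all genes 32.5%). Chaetocin 2 was lower than chaetocin 1 in 64 of the 79 genes, or 81.0%, against 49.8% of all genes. Without chaetocin 2 the nuclear median fold change was 0.04 with 35 genes below 0, and without chaetocin 1 it was -0.29 with 66 below 0. With no scaling factor the medians of chaetocin 1 and 2 were 0.17 and -0.07, chaetocin 2 was below both controls for 38 nuclear genes (48.1%, against 25.0% of all genes) and chaetocin 1 above both for 48 (60.8%, against 51.4%). Chaetocin 2 was then lower than chaetocin 1 in 58 genes, or 73.4% against 41.5% of all genes. Both libraries were then below both controls for 10 nuclear genes (12.7%, against 14.2%) and above both for 14 (17.7%, against 39.6%).

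**Figure D1:**
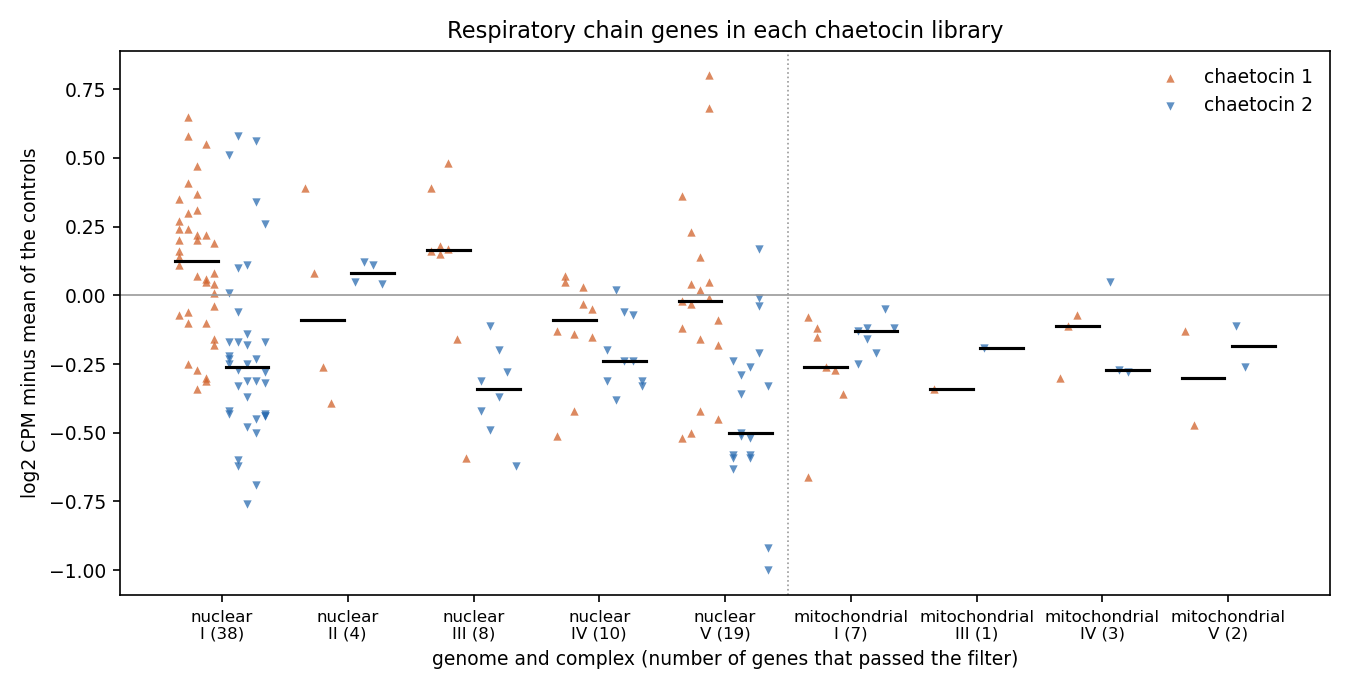
Difference of each respiratory chain gene from the mean of both controls (log2 CPM, vertical axis) in chaetocin 1 (upward triangles) and chaetocin 2 (downward triangles), by genome and complex, with black bars at the medians. The nuclear medians of chaetocin 2 lie below those of chaetocin 1 in complexes I, III, IV and V (complex V -0.50 against -0.02), while the mitochondrial medians of both libraries lie below 0 on this TMM scale (with no scaling factor that of chaetocin 2 is 0.04).

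The mitochondrial genes lay low in both libraries on the TMM scale, and mainly in chaetocin 1 without it. On the TMM scale their median difference from the controls was -0.26 in chaetocin 1 and -0.16 in chaetocin 2, and control 2 lay 0.04 above control 1. Both libraries were below both controls for 10 of the 13 genes, or 76.9%, against 26.0% of all genes, and none was above both. The exceptions were MT-ND1, where both chaetocin libraries lay between the controls, and MT-CO1 and MT-CO3, where 1 did. The 13 genes come from shared precursor transcripts, so they are not 13 separate observations. Under upper-quartile scaling the count below both controls was 5 in place of 10 (38.5%, against 19.7% of all genes), with a median log2 fold change of -0.10 and still 13 genes below 0. With no scaling factor the medians were -0.14 in chaetocin 1 and 0.04 in chaetocin 2. Chaetocin 2 was then above both controls for 5 genes (38.5%, against 59.5% of all genes) and below both for 3 (23.1%, against 25.0%). Both libraries were then below both controls for MT-ND5 and MT-ATP8 alone (15.4%, against 14.2% of all genes). The values of the other 8 given below as lower in both libraries hold for the TMM scale. Without control 2 the fold change of MT-ND1 was 0.03 and without chaetocin 1 that of MT-CO1 was 0.04, and the other 12 genes stayed below 0 in each fit.

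Among the complex I genes of mitochondrial DNA, which form the proton-pumping membrane arm, MT-ND5 had the lowest log2 fold change. It measured 2378 and 2396 CPM in controls and 1506 and 2012 CPM with chaetocin, a log2 fold change of -0.44 (SE 0.22; edgeR adjusted p = 0.298). Both chaetocin libraries were below both controls, and the gap was largest in chaetocin 1. Without chaetocin 2 the adjusted p in the edgeR fit was 0.0336, and without chaetocin 1 it was 0.373. These fits called more of all genes than the main test did, 4.23% higher and 5.59% lower without chaetocin 2, and 7.55% higher and 9.48% lower without chaetocin 1. As a share of the counts of all 13 genes, a measure free of scaling between libraries, MT-ND5 held 7.65%, 7.92%, 5.84% and 7.07%. MT-ND4 measured 6502, 6681, 5482 and 6344 CPM, and its partner MT-ND4L 1229, 1364, 1011 and 1193 CPM. Both were below both controls with chaetocin on this scale, with chaetocin 2 above both when no factor was used, and chaetocin 2 came within 0.05 of the control mean for MT-ND4. MT-ND1 measured 2276, 2785, 2383 and 2306 CPM, MT-ND2 1412, 1452, 1287 and 1321 CPM, and MT-ND3 423, 461, 368 and 381 CPM. MT-ND6, the only mRNA gene on the opposite strand, measured 508, 464, 446 and 433 CPM. The fold changes of these last 4 genes lay between -0.24 and -0.11.

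MT-CYB, cytochrome b of complex III, measured 1824, 1645, 1373 and 1517 CPM, lower in both chaetocin libraries (log2 fold change -0.26, SE 0.19), and between the controls in chaetocin 2 with no scaling factor. Of the catalytic core of complex IV, MT-CO1 measured 7505, 6386, 5624 and 7144 CPM, and chaetocin 2 lay between the controls. MT-CO2 measured 3209, 2922, 2835 and 2531 CPM and MT-CO3 1903, 1669, 1702 and 1465 CPM. For these 3 genes the controls differed by -0.19 at the median (control 2 minus control 1), and the median fold change was -0.17. For the ATP synthase, MT-ATP6, the proton channel subunit, measured 1588, 1689, 1499 and 1513 CPM. MT-ATP8 measured 334, 351, 248 and 286 CPM, with a log2 fold change of -0.36 (SE 0.16; edgeR adjusted p = 0.257), the lowest p of the 13.

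**Figure D2:**
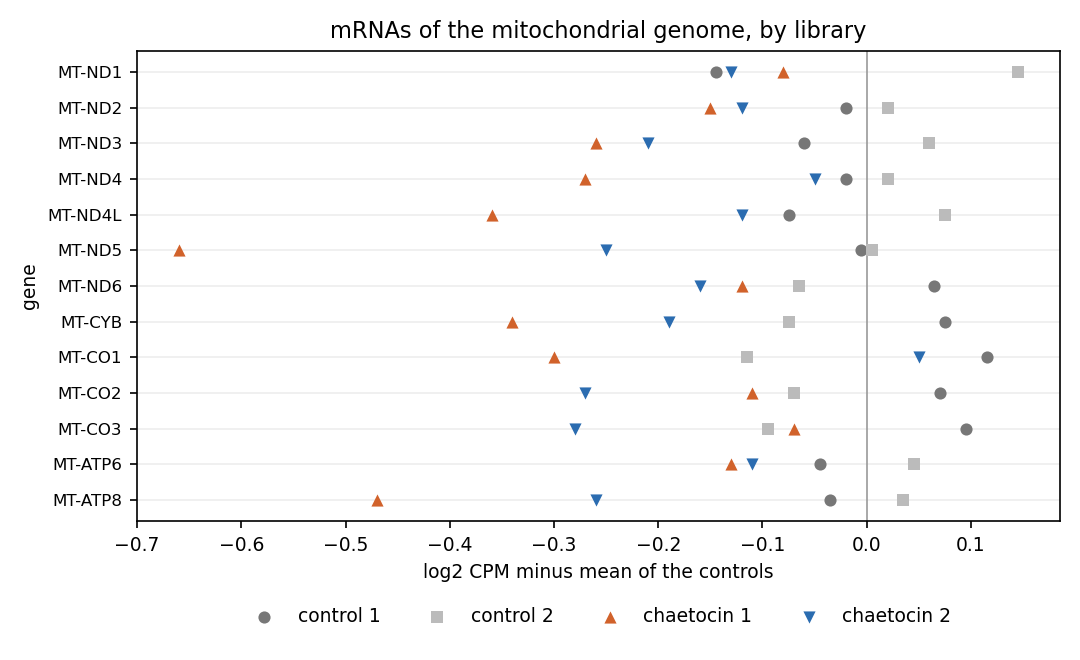
Log2 CPM of each of the 13 mitochondrial genes minus the mean of the controls (horizontal axis), with 1 point for each library. Chaetocin 1 and chaetocin 2 both lie left of both controls in 10 genes (2 with no scaling factor), and MT-ND5 in chaetocin 1 is the farthest at -0.66.

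Other transcripts of mitochondrial DNA did not share a direction in chaetocin 2, where most of the mRNAs lay below the controls on the TMM scale. The libraries were made from polyadenylated RNA, and how much ribosomal and transfer RNA passed this selection in each was not measured. The ribosomal RNAs MT-RNR1 and MT-RNR2 measured 582, 591, 497 and 929 CPM and 5362, 5503, 4752 and 6637 CPM, lower than both controls in chaetocin 1 and higher in chaetocin 2. The 22 transfer RNA genes summed to 1358, 1474, 1013 and 1814 CPM, but MT-TA, the alanine transfer RNA gene, held 90.6% to 94.1% of these counts. Without MT-TA the sum was 109, 139, 93.4 and 107 CPM. Of 21 transfer RNA genes tested, chaetocin 2 was above both controls in 7 (all genes 41.1%) and below both in 10 (all genes 40.9%). Chaetocin 1 was above both in 3 (all genes 40.9%) and below both in 14 (all genes 39.8%). Nuclear copies of mitochondrial genes also took counts. They equalled 6.60% to 8.86% of the MT-ND2 counts, 5.05% to 5.32% for MT-ND4 and 1.58% to 2.81% for MT-ATP6, and at most 0.131% for MT-ND1 and MT-CO1. How reads matching several places were counted is not given in the sources used here.

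The balance of the genomes was then taken within each library, as the summed counts of the 13 mitochondrial genes per 100 counts of the 88 nuclear genes. This was 335.9 and 338.2 in controls and 299.8 and 365.9 with chaetocin. Chaetocin 1 was below and chaetocin 2 above the controls. The mean log2 ratio differed by -0.03 between groups, less than the SD of 0.203 between the chaetocin libraries, while the controls had an SD of 0.00678. Without chaetocin 1 the difference was 0.12 and without chaetocin 2 it was -0.17. Per 100 nuclear counts there were 610.0, 694.8, 507.9 and 663.9 mitochondrial counts within complex I, 177.7, 156.6, 129.0 and 184.4 within complex III, and 1453, 1298, 1254 and 1477 within complex IV. In all 3, chaetocin 1 had the lowest ratio. Complex V differed, with nuclear counts above mitochondrial ones and 42.0, 45.7, 45.0 and 48.5 mitochondrial counts per 100, where chaetocin 1 lay between the controls.

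**Figure D3:**
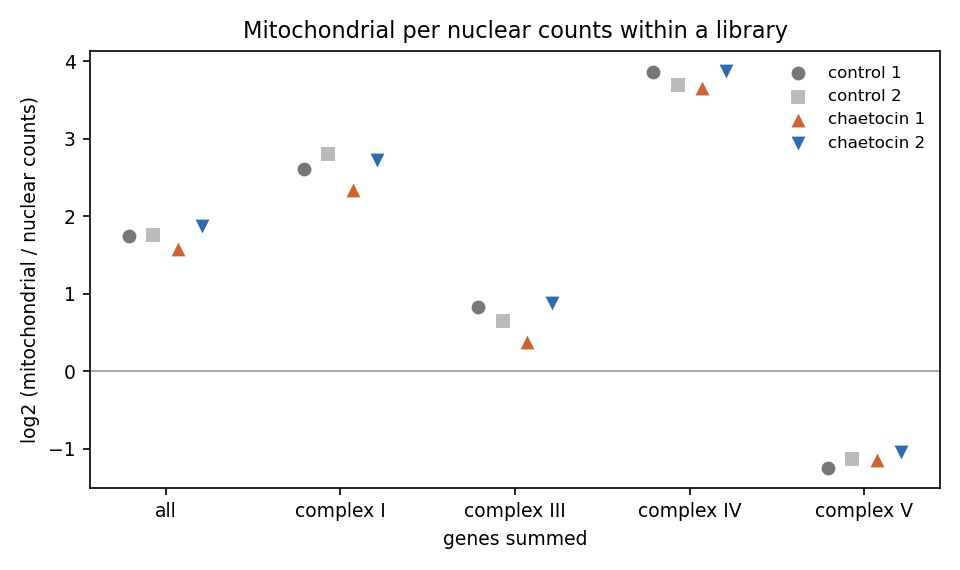
Log2 of summed mitochondrial over summed nuclear counts within each library (vertical axis), for all genes and for complexes I, III, IV and V. Controls lie at 1.75 and 1.76 over all genes, between chaetocin 1 at 1.58 and chaetocin 2 at 1.87.

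Complex V had a nuclear median of -0.23 in the fit, which rested on chaetocin 2. Its median difference from the controls was -0.02 in chaetocin 1, where complexes II and IV lay lower at -0.09, and -0.50 in chaetocin 2. Of its 19 genes tested, 16 had a fold change below 0. In both libraries 7 were below both controls (36.8%, against 26.0% of all genes) and none was above both (all genes 26.8%). Chaetocin 2 was below both controls in 17 (89.5%, against 40.9%). With no scaling factor, 11 fold changes were below 0. Then 5 genes were below both controls in both libraries (26.3%, against 14.2% of all genes) and 2 above both (10.5%, against 39.6%). Chaetocin 2 was then below both in 14 (73.7%, against 25.0%). The catalytic F1 head is built from alpha, beta, gamma, delta and epsilon subunits. ATP5F1A (alpha) measured 699 and 730 CPM in controls and 498 and 473 CPM with chaetocin, a log2 fold change of -0.56 (SE 0.17; edgeR adjusted p = 0.118, DESeq2 adjusted p = 0.0354). ATP5F1C (gamma, the rotating stalk) measured 155, 156, 117 and 103 CPM, a log2 fold change of -0.50 (SE 0.14; edgeR adjusted p = 0.110). ATP5F1B (beta) measured 1020, 1057, 735 and 850 CPM, a log2 fold change of -0.39 (SE 0.18; edgeR adjusted p = 0.273). In these 3 genes the groups did not overlap and both chaetocin libraries were low, also with no scaling factor.

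The small F1 subunits behaved differently between the libraries. ATP5F1D (delta) measured 50.3 and 50.9 CPM in controls, 81.0 CPM in chaetocin 1 and 43.8 CPM in chaetocin 2. ATP5F1E (epsilon) measured 117 and 116 CPM in controls, 109 CPM in chaetocin 1 and 58.4 CPM in chaetocin 2. ATP5F1D lay on opposite sides of the controls, and ATP5F1E was below both controls in both libraries, by more in chaetocin 2, while with no scaling factor chaetocin 1 was above both. The edgeR fits without 1 of the chaetocin libraries differed. The adjusted p of ATP5F1D was 0.00863 (higher) without chaetocin 2 and 0.333 without chaetocin 1, and that of ATP5F1E was 0.000211 (lower) without chaetocin 1 and 0.658 without chaetocin 2. The length and GC correction moved the log2 fold change of ATP5F1D from 0.30 to 0.14. ATP5IF1, the inhibitor that blocks the synthase when it runs backwards, had the same split, at 66.5, 60.3, 81.1 and 42.3 CPM. ATP5MD, a small membrane subunit whose promoter is printed above, measured 69.7, 71.9, 62.3 and 37.4 CPM, a log2 fold change of -0.51 (SE 0.23; edgeR adjusted p = 0.256). In the edgeR fits ATP5MD was called lower without chaetocin 1 (adjusted p = 0.000448) and not without chaetocin 2 (adjusted p = 0.382). ATP5MF, another membrane subunit, measured 91.6, 76.8, 85.9 and 59.3 CPM.

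A set of 3 genes encodes the same mature c subunit of the membrane ring. ATP5MC3 measured 1436, 1315, 1360 and 1364 CPM and did not separate the groups, while ATP5MC1 measured 33.7, 31.6, 31.8 and 22.9 CPM and ATP5MC2 61.3, 58.4, 60.7 and 41.6 CPM. The last 2 were low in chaetocin 2 alone. ATP5MC3 held 93.8%, 93.6%, 93.6% and 95.5% of the counts of the 3 genes. In the peripheral stalk that holds the F1 head still, ATP5PB measured 451, 421, 319 and 345 CPM, a log2 fold change of -0.39 (SE 0.16; edgeR adjusted p = 0.220). It was named after its values were seen, because its unadjusted p was below 0.05. ATP5S, a coupling factor at 2.70, 5.19, 6.57 and 4.22 CPM, had the highest fold change of the complex, 0.43, with overlapping groups.

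**Figure D4:**
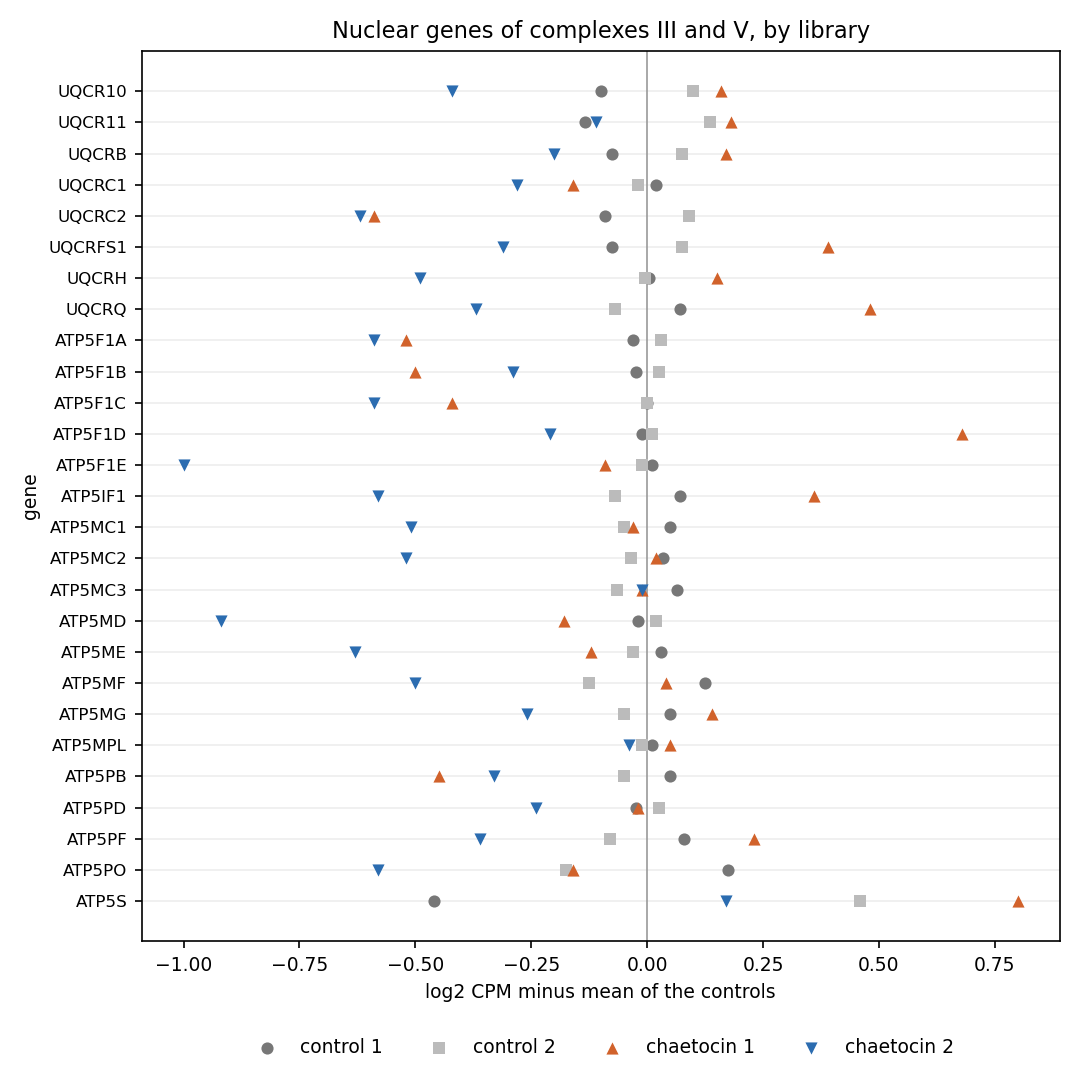
Log2 CPM of the 8 nuclear genes of complex III and the 19 of complex V that passed the filter, minus the mean of the controls (horizontal axis), with 1 point for each library. UQCRC2, ATP5F1A, ATP5F1B, ATP5F1C and ATP5PB lie left of the controls in both chaetocin libraries, and UQCRQ, UQCRFS1, ATP5F1D and ATP5IF1 lie on opposite sides.

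Complex III hands electrons from ubiquinol to cytochrome c. UQCRC2, a core subunit at chr16:21952660-21983660 (plus strand, GRCh38 annotation, printed promoter above), measured 105 and 119 CPM in controls and 74.0 and 72.7 CPM with chaetocin. Its log2 fold change of -0.61 (SE 0.14) was the lowest of all 92 genes tested, with an edgeR adjusted p of 0.0717 and a DESeq2 adjusted p of 0.0311. The adjusted p of UQCRC2 ran from 0.00454 to 0.454 over the alternatives, the highest being the edgeR fit without control 2. UQCRC1, the other core subunit, measured 404, 393, 357 and 329 CPM, a log2 fold change of -0.22. Both were below both controls in both chaetocin libraries, and none of the other UQCR genes tested was. UQCRQ measured 122, 110, 162 and 89.5 CPM, and UQCRH, the hinge subunit, 117, 116, 129 and 82.9 CPM. Of the 8 genes tested, 5 had chaetocin 1 above and chaetocin 2 below both controls (all genes 8.80%), and in all 8 chaetocin 2 was lower than chaetocin 1 (all genes 49.8%). Without TMM scaling these counts were 4 and 7, against 6.24% and 41.5% of all genes, and both core subunits were still below both controls in both libraries. In the edgeR fits, UQCRQ was called higher without chaetocin 2 (adjusted p = 0.0385) and not without chaetocin 1 (adjusted p = 0.0730), and its log2 fold change went from 0.11 to -0.01 with the length and GC correction. UQCRH went the other way, called lower without chaetocin 1 (adjusted p = 0.0196) and not without chaetocin 2 (adjusted p = 0.506).

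Complex I, which takes electrons from NADH, had 38 nuclear genes tested, of which 16 were above 0 and 22 below. Chaetocin 1 was above and chaetocin 2 below both controls for 14 (all genes 8.80%). In both libraries 10 were below both controls, or 26.3% against 26.0% of all genes, and 4 were above both, or 10.5% against 26.8%. Without TMM scaling the split took in 8 genes (all genes 6.24%), and 3 were below both (all genes 14.2%) and 8 above both (all genes 39.6%). NDUFB5, a membrane arm subunit, was one of the 4, at 138 and 117 CPM in controls and 162 and 182 CPM with chaetocin (log2 fold change 0.43, SE 0.16; edgeR adjusted p = 0.178). NDUFA8 measured 156, 154, 201 and 167 CPM, also above both controls in both libraries. NDUFV2, an iron-sulfur subunit of the NADH-oxidising module, was above both at 1.60, 1.74, 2.53 and 2.53 CPM, with 28.4% of its exon bases in another annotated gene. NDUFS8, which carries iron-sulfur clusters next to the membrane, measured 250, 175, 220 and 251 CPM, and the groups overlapped. NDUFA4, now counted with complex IV by function, measured 93.5, 75.9, 70.1 and 65.0 CPM. Its paralog NDUFA4L2 measured 1.02, 0.348, 0.919 and 0.929 CPM, too few counts to order the groups.

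Complex II links the chain to the citric acid cycle, and none of its 4 genes had chaetocin 2 below both controls. SDHA, the flavoprotein, measured 131, 114, 159 and 126 CPM. SDHB, the iron-sulfur subunit, measured 125, 129, 134 and 139 CPM, above both controls in both libraries by a log2 fold change of 0.10. The membrane anchors SDHC and SDHD measured 82.4, 76.1, 66.3 and 85.7 CPM and 26.9, 26.9, 20.5 and 27.7 CPM, below both controls in chaetocin 1 and above both in chaetocin 2. The log2 fold changes lay between -0.15 and 0.22, and the lowest adjusted p in the edgeR fit was 0.495.

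Complex IV reduces oxygen. Of its 10 nuclear genes tested, 9 had a fold change below 0 and 5 were below both controls in both libraries, or 50.0% against 26.0% of all genes. None was above both controls in either library, against 40.9% of all genes in chaetocin 1 and 41.1% in chaetocin 2. Without TMM scaling none was below both controls in both libraries (all genes 14.2%), while chaetocin 1 was above both for 5 (all genes 51.4%) and chaetocin 2 for 3 (all genes 59.5%). COX6B1, the most abundant per length, measured 154, 138, 149 and 124 CPM, COX5B 123, 115, 123 and 91.7 CPM, and COX7C 133, 137, 132 and 128 CPM. In chaetocin 1 these 3 lay within -0.03 to 0.05 of the control mean on the log2 CPM scale. Several subunits have a heart or testis form beside the common one. COX6A1, COX7A2 and COX8A are the common forms. They measured 44.4, 40.1, 38.3 and 35.7 CPM, 42.2, 35.8, 35.6 and 31.4 CPM, and 27.2, 22.3, 22.2 and 19.6 CPM. Each was lower than both controls in both libraries on the TMM scale, but not with no scaling factor. Their counterparts COX6A2, COX7A1 and COX8C, and the testis form COX6B2, did not pass the filter and measured at most 0.414 CPM in any library. COX7B2 and NDUFC2-KCTD14 had 0 counts in every library, which allows up to 3 counts, and UQCRHL, ATP5MF-PTCD1 and ATP5MGL measured at most 0.164 CPM.

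The split between the chaetocin libraries was set beside transcript length, since nuclear respiratory transcripts are short, with a median of 930 bases against 2583 for all genes tested. Among all genes, the median of chaetocin 2 minus chaetocin 1 was -0.09, -0.20, -0.11 and 0.06 (log2 CPM) for lengths under 600, from 600 to under 1000, from 1000 to under 2000, and 2000 bases and over. For the nuclear respiratory genes it was -0.51 (13 genes), -0.36 (31 genes), -0.14 (19 genes) and -0.21 (16 genes). The difference varied with length in both sets, and in each class the respiratory genes lay lower than all genes. With offsets for length and GC content fitted in each library, the median of chaetocin 1 was -0.13 in place of 0.05, and 42 of 79 nuclear genes were below both controls in both libraries in place of 24. That was 53.2%, against 27.1% of all genes under the same correction.

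**Figure D5:**
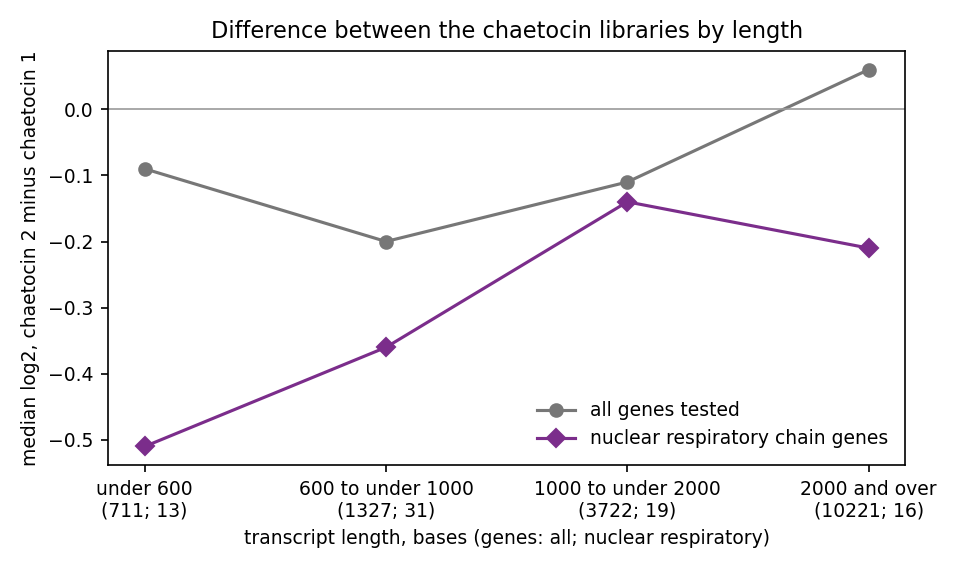
Median log2 CPM of chaetocin 2 minus chaetocin 1 (vertical axis) in 4 classes of transcript length (horizontal axis), for all genes tested (circles) and the nuclear respiratory chain genes (diamonds). The diamonds lie below the circles in each class, from -0.51 against -0.09 under 600 bases to -0.21 against 0.06 at 2000 bases and over.

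Genes around the chain were counted in 7 lists, and no gene of any list passed the main test. Their values are on the TMM scale and were not refitted without it. Among 17 electron carriers and subunits with other symbols the median log2 fold change was -0.06, and 8 were below both controls in both libraries (all genes 26.0%). COQ4, needed to make ubiquinone, measured 27.3, 25.0, 18.0 and 18.2 CPM, and CYC1, cytochrome c1 of complex III, 76.7, 77.8, 60.2 and 52.6 CPM. Both were low in both chaetocin libraries, like UQCRC2 in the same complex. The 50 assembly factors had a median of 0.02, and NDUFAF6, which assists complex I, measured 23.9, 26.2, 38.6 and 35.9 CPM (log2 fold change 0.57, SE 0.16; edgeR adjusted p = 0.0956). The 29 genes for transcription of mitochondrial DNA and handling of its RNA had a median of -0.09. FASTKD2, an RNA-binding protein of the organelle, measured 85.6, 97.8, 64.3 and 64.2 CPM.

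Of 11 regulators of nuclear respiratory genes, with a median of 0.07, MYC had the lowest p, at 99.7, 126, 77.6 and 76.0 CPM (log2 fold change -0.56, SE 0.16; edgeR adjusted p = 0.109). The coactivators PPRC1 and PERM1 measured 71.1, 85.9, 64.8 and 57.4 CPM and 2.05, 1.77, 2.94 and 2.70 CPM, on opposite sides of the controls. The 75 mitochondrial ribosomal protein genes had a median of -0.09, and chaetocin 2 was lower than chaetocin 1 in 57 of them (all genes 49.8%). MRPS6 measured 68.2, 47.5, 32.5 and 22.1 CPM (log2 fold change -1.09, SE 0.24; edgeR adjusted p = 0.0594) and MRPL53 5.33, 4.73, 10.4 and 8.95 CPM (log2 fold change 0.94, SE 0.22; edgeR adjusted p = 0.0719). The 19 genes of the citric acid cycle had the lowest median of the 7 lists, -0.24, and 12 were below both controls in both libraries (all genes 26.0%). SUCLG2 and SUCLG1, subunits of succinyl-CoA ligase, measured 107, 117, 82.4 and 72.8 CPM and 66.5, 68.0, 48.9 and 52.3 CPM. The 13 chaperones and proteases had a median of -0.06.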

How the data were processed

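Polyadenylated RNA of 4 U87MG samples, 2 untreated and 2 with chaetocin, was measured. The authors deposited raw read counts per Ensembl gene, 1 table a sample, with no normalization. The submitters' processing notes name cutadapt, TopHat2, TopHat, SAMtools and the build GRCh37. The counting tool, strand setting and treatment of reads that match several places are not given in the sources used here. Symbols, positions and transcripts came from GENCODE v29 (GRCh38), joined by Ensembl ID, and no GRCh37 coordinate is printed. Of 57905 IDs 52338 matched, and the others held 1.31% of counts.

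edgeR 4.0.16 (R 4.3.3) was run on the counts with filterByExpr (minimum count 10), TMM scaling, a robust quasi-likelihood fit without block and Benjamini-Hochberg adjustment over all 16416 genes tested. CPM values are scaled by TMM, and log2 CPM used a prior count of 2. DESeq2 1.42.0 and the other alternatives are in the closing section. Named genes were all mitochondrial and SDH genes, the 3 nuclear genes with the highest TPM in complexes I, III, IV and V, the 5 highest and 5 lowest fold changes, paralog sets, ATP5IF1, and in each other list the 3 or fewer with the lowest p that are given. ATP5PB was added. Members and lists were chosen with earlier results of these data known. Scripts were tested on simulated data.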

Additional observations from a re-analysis of the deposited data

How the results depend on the processing

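The test was limited by 2 samples a group and a common biological variation of 16.8%. The number of respiratory chain genes called lower was 0 to 18 and called higher 0 to 2 over the 4 fits that left out 1 library. Without chaetocin 1, 18 were lower (among them ATP5F1A, ATP5F1C, ATP5F1E, ATP5IF1, ATP5MC1, ATP5MC2, ATP5MD, ATP5MF, ATP5PO, NDUFA3, NDUFA5, NDUFB2, NDUFB9, NDUFS5, NDUFV3, UQCRC2 and UQCRH; 19.4%, against 9.48% of all genes) and NDUFB5 was higher (all genes 7.55%). Without chaetocin 2, 4 were lower (ATP5F1A, COX5A, MT-ND5 and UQCRC2; 4.30%, against 5.59%) and 2 higher (ATP5F1D and UQCRQ; all genes 4.23%). A group of 1 is assumed there to vary like the other. Over these fits the nuclear median ran from -0.29 to 0.04, complex I from -0.28 to 0.12, complex II from -0.10 to 0.08, complex III from -0.34 to 0.15, complex IV from -0.24 to -0.06 and complex V from -0.50 to -0.03. The mitochondrial median ran from -0.27 to -0.16 and its complex I from -0.27 to -0.13.

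RLE size factors, TMM without the mitochondrial genome, at least 10 counts in every sample, protein-coding genes only and thinning to the smallest library moved no median by more than the spread between replicates and no count of respiratory chain genes by over 1.5 times. With at least 10 counts in every sample 114 of all genes were called higher and 80 lower. Called lower were 2 genes with no filter (2.02%, against 2.39% of all genes), 2 with DESeq2 (2.17%, against 2.81%), UQCRC2 and ATP5F1A in both, and 4 at unadjusted p, where 1 was higher. Total counts with no scaling factor, chosen after seeing the data, gave mitochondrial medians of -0.01 in all, 0.01 in complex I, -0.10 in complex III, -0.01 in complex IV, -0.07 in complex V, -0.14 in chaetocin 1 and 0.04 in chaetocin 2, nuclear medians of 0.19 in complex II, -0.02 in complex IV and -0.07 in chaetocin 2, 2 mitochondrial and 10 nuclear genes below both controls, and 14 nuclear genes above both. Upper-quartile factors gave mitochondrial medians of -0.10 in all, -0.08 in complex I, -0.16 in complex V, -0.19 in chaetocin 1 and -0.08 in chaetocin 2, with 5 mitochondrial genes below both controls and 10 nuclear genes above both. The length and GC correction gave -0.28 for mitochondrial genes, -0.27 in complex I, -0.32 in complex V, -0.39 in chaetocin 1 and -0.22 in chaetocin 2, -0.30 for nuclear complex IV, -0.20 for all nuclear genes, -0.14 for nuclear complexes I and III, -0.13 for nuclear genes in chaetocin 1, and 42 nuclear genes below both controls (53.2%, against 27.1% of all genes).

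Samples of the groups share only a replicate number, and the difference of replicate 2 from 1 had r = 0.123 between groups across 16416 genes, which are not independent. With a replicate block 5 genes were lower (ATP5F1A, ATP5F1C, ATP5F1E, ATP5MD and UQCRC2), or 5.43% against 6.41% of all genes, where 1036 genes were called higher and 1053 lower in place of 182 and 122. With the replicate block and the length and GC correction 4 were lower (ATP5F1C, ATP5MD, COX5A and UQCRC2), or 4.35% against 5.42% of all genes, with medians of -0.28 for mitochondrial genes, -0.26 in their complex I, -0.32 in their complex V and -0.31 for nuclear complex IV. The cause was not tested. Leaving out the 21 nuclear genes with 20% or more of exon bases in another gene, chosen after seeing the data, gave a nuclear median of -0.10. For the 45 named respiratory chain genes that passed the filter, 652 values kept sign and side of the threshold, 28 were newly called and 40 changed sign uncalled. ATP5PB and the named genes of the other lists are not in this tally.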
